A study of Mus musculus with 8 samples.

Results

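The 10 genes described here encode proteins of the skeletal muscle Z-disc: Actn2, Actn3, Tcap, Myoz1, Myoz2, Myoz3, Myot, Ldb3, Pdlim3 and Synpo2l. They were chosen by gene symbol from a list of Z-disc proteins, and all 10 were found among the 22880 Ensembl gene IDs of the count tables. This choice, and that of all further gene lists used below, was made with earlier results of these data known. RNA was sequenced from the soleus, a postural calf muscle of mixed slow and fast fibres, of 4 control mice (Dnm2 +/+) and 4 Dnm2 +/K562E mice, which carry 1 mutant allele of dynamin 2, a GTPase of endocytosis. All 8 mice were males on a C57BL/6 background at 2 months of age. The K562E mutation was introduced into exon 16 of the endogenous gene by homologous recombination and is present in every cell of the animal, together with a loxP site left in the following intron, so that the mutation is not confined to muscle fibres. In most of the study's experiments the controls were littermates or mice of matched age. The comparison asks how the levels of Z-disc transcripts differ in Dnm2 +/K562E soleus, in which the study set out to examine the consequences of the mutation for muscle.

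The Z-disc is the boundary between neighbouring sarcomeres, the contractile units of striated muscle. Alpha-actinins crosslink the actin filaments that meet there from either side, the amino-terminal ends of titin are anchored there, and a layer of adaptor proteins ties these filaments to one another and to signalling enzymes such as the phosphatase calcineurin. Several of the genes form families whose members are used by different fibres. Actn2, the alpha-actinin of all skeletal fibres and of the heart, and Myoz2, the myozenin of slow fibres and of the heart, contrast with Actn3 and Myoz1, which are used mainly by fast fibres.

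Depth ran from 33407430 to 48832814 counted reads per mouse, and any pair of mice of the same genotype differed by more than counting noise, with a chi-square of at least 12.9 per degree of freedom. Levels are given as normalized CPM, the standard unit of reads per library size, after scaling by TMM, a method that takes its factor from genes that differ little between libraries. This factor lay between 0.915 and 0.959 for every control and between 1.037 and 1.103 for every Dnm2 +/K562E mouse, and scaling therefore shifts one genotype against the other. All 10 genes passed the filter on low counts, as did 14001 genes in all. Myh7, the slow myosin that marks the soleus, was at 5808 to 6384 normalized CPM in controls and 3694 to 4643 in Dnm2 +/K562E mice. Dnm2 itself, whose total is not expected to report a point mutation, was at 66.3 ± 4.74 normalized CPM in controls and 73.4 ± 2.43 in Dnm2 +/K562E mice (SD, n = 4 each), with a log2 fold change of 0.15 ± 0.07 (SE) and an adjusted p of 0.0909 in edgeR's quasi-likelihood test. Every Dnm2 +/K562E mouse (70.3 to 76.1) lay above every control (59.2 to 68.8), and Dnm2 passed the test with library size alone (0.36, adjusted p of 0.00271) and when scaled to the fibre genes described further on (0.53, adjusted p of 5.20e-04). Part of this count can come from Tmed1, whose exons overlap those of Dnm2.

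Most of the 10 Z-disc transcripts were less abundant in Dnm2 +/K562E soleus with TMM scaling. Of the 10 genes, 7 fell (Actn2, Actn3, Tcap, Myoz1, Myoz2, Myot and Ldb3), 1 rose (Pdlim3) and 2 did not pass the test (Myoz3 and Synpo2l), at an adjusted p under 0.05 in the quasi-likelihood test of edgeR. Over all 14001 genes tested, 21.7% were lower and 22.2% higher by the same rule. With the added requirement of a log2 fold change of at least 0.58, 3 of the 10 were lower (Actn3, Myoz1 and Myoz2) and 0 higher, against 7.85% of all genes lower and 12.9% higher. In 6 of the 10 every Dnm2 +/K562E mouse lay below every control and in 0 above, against 20.5% of all genes below and 20.6% above. The median log2 fold change was -0.53 over the 10 genes and 0.01 over all genes tested. These counts became 3 lower and 2 higher when libraries were scaled to genes shared by fast and slow fibres, a scale on which 5.59% of all genes were lower and 54.2% higher. Together the 10 genes took 1.24% to 1.32% of all reads in controls and 0.970% to 1.08% in Dnm2 +/K562E mice. In RNA from whole muscle, fewer fibres and less RNA per fibre cannot be told apart.

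**Figure D1:**
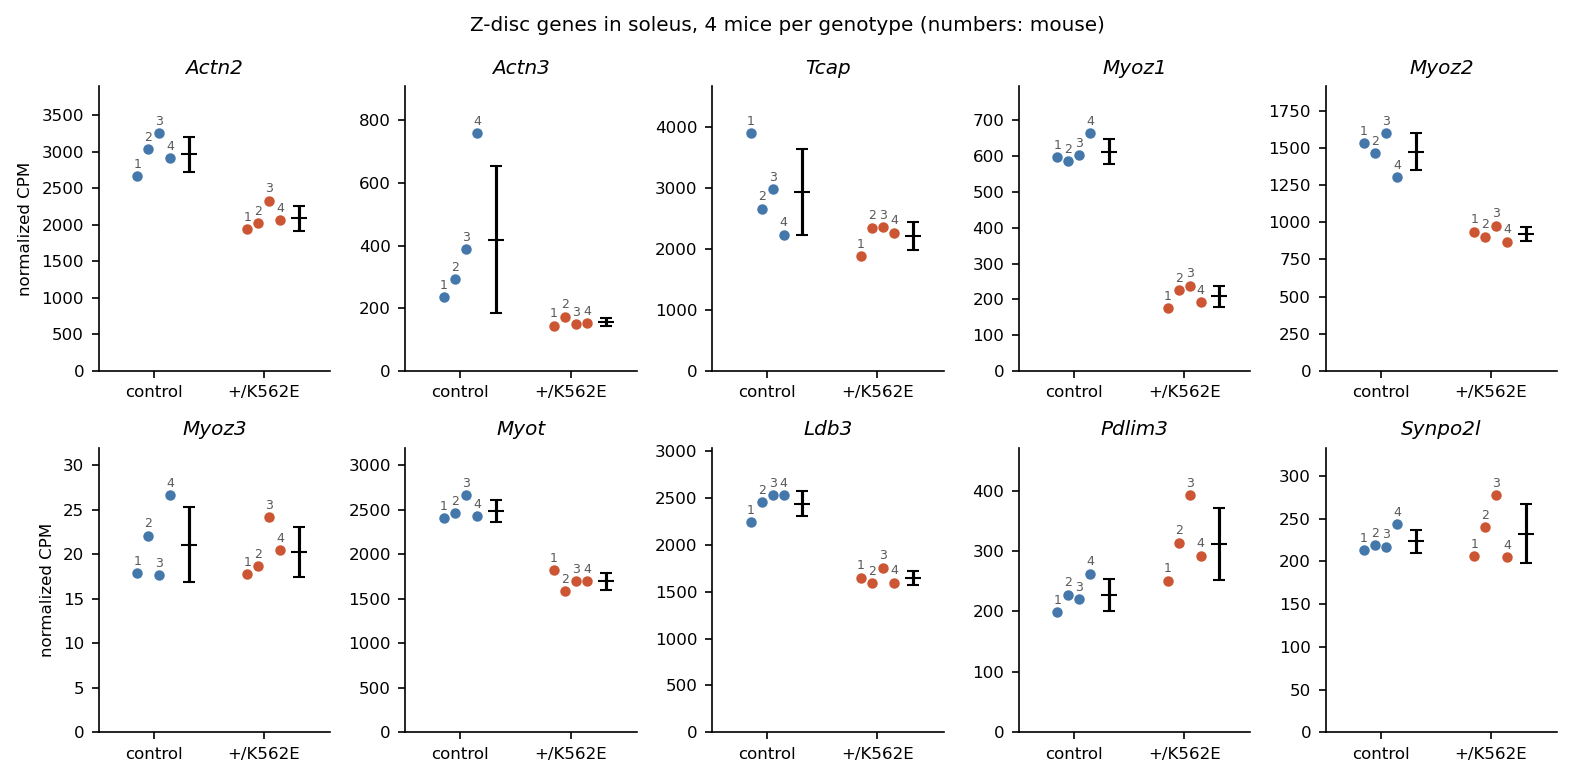
Normalized CPM (vertical axes, from 0) of each Z-disc gene in 4 control mice (blue) and 4 Dnm2 +/K562E mice (orange), numbered by mouse, with the mean and SD of each genotype in black. The genotypes are separate for Actn2, Actn3, Myoz1, Myoz2, Myot and Ldb3 and overlap for Tcap, Myoz3, Pdlim3 and Synpo2l.

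Both muscle alpha-actinins fell. Actn2 (ENSMUSG00000052374, minus strand of chr13:12269426-12340760, GRCm38) encodes the main crosslinker of the Z-disc. It was at 2667, 3033, 3252 and 2914 normalized CPM in controls 1 to 4 and at 1940, 2025, 2331 and 2069 in Dnm2 +/K562E mice 1 to 4. Every Dnm2 +/K562E mouse lay below the lowest control. The fitted log2 fold change was -0.50 ± 0.08 (SE), a level 29.5% lower, with an adjusted p of 6.01e-04 in edgeR's test.

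Actn3 (ENSMUSG00000006457, minus strand of chr19:4861216-4877909), the alpha-actinin of fast fibres, was at 235.9, 293.6, 389.2 and 757.7 normalized CPM in controls 1 to 4. In Dnm2 +/K562E mice 1 to 4 it was at 144.0, 173.4, 149.6 and 153.0. The groups did not overlap, control 4 stood far above the other controls, and the Dnm2 +/K562E mice lay close together. On the log2 scale Actn3 differed by -1.43 ± 0.30 (SE), a level 63.0% lower, with an adjusted p of 0.00257 in edgeR's test. Without control 4 the log2 fold change was -0.99. The same mouse was high in some other genes of fast fibres. Myh4, the myosin of the fastest (type 2B) fibres, was at 3134 normalized CPM in control 4 and between 162.8 and 426.4 in the other controls. Pvalb, the calcium buffer parvalbumin, was at 946.1 in control 4 and between 341.5 and 469.1 in the other controls. This did not hold for all genes of fast fibres: of 9 on the list, control 4 was the highest control in 3 (Myh4, Pvalb and Atp2a1) and the lowest in 4 (Myh1, Myh2, Tnni2 and Tnnc2). The coefficient of variation of Actn3 was 55.9% in controls and 8.25% in Dnm2 +/K562E mice. The part of these genes in the difference of Actn3 was not tested.

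The alpha-actinin genes have similar coding sequences, so it was asked whether reads could be assigned to the wrong gene. Of all 31-base stretches in their annotated transcripts, 1.62% of those of Actn2 and 1.01% of those of Actn3 also occurred in the transcripts of another gene, and 21 stretches were common to the pair. The longest common run, 51 bases of coding sequence in exon 10 of 21 of either gene (minus strands of chr13:12291714-12291764 and chr19:4867867-4867917, GRCm38), is shown because it is where the genes are most alike. The sequenced reads were longer than this run, so that an untrimmed read also covers bases outside it.
Actn2 and Actn3: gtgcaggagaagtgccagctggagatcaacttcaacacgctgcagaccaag
No exon of the 10 genes overlapped an exon of another gene in the annotation, and for the 8 other genes at most 1.27% of the stretches were shared.

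Promoter sequences, taken as the 250 bases before the start site, were found for 5 of the 10 genes in the RefSeq table of GRCm38.p6 (Actn2, Myoz2, Ldb3, Pdlim3 and Synpo2l), and 3 are shown: those of the main alpha-actinin and of the slow-fibre myozenin, which fell, and that of the gene that rose. Capitals mark matches, on either strand, to the E-box CANNTG and to the 10-base MEF2 consensus, recognised by the MEF2 factors of muscle. The E-box is the core recognised by bHLH factors, the myogenic ones among them. An E-box was present in 4 of the 5 genes and in 66.2% of all 32851 promoters of that length. A MEF2 match was present in 2 of the 5 (Myoz2 and Synpo2l) and in 2.92% of all promoters. A match describes the letters and not a bound site. The gene starts of GENCODE lie 28 bases (Actn2 and Myoz2) and 26 bases (Pdlim3) before those of RefSeq used here, so that the last bases shown are transcribed in that annotation.
Actn2, minus strand of chr13:12340733-12340982: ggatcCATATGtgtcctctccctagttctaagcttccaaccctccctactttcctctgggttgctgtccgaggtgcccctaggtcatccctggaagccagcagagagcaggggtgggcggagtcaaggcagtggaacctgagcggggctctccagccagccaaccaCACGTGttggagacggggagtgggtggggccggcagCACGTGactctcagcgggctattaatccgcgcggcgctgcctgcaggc
Myoz2, minus strand of chr3:123034988-123035237: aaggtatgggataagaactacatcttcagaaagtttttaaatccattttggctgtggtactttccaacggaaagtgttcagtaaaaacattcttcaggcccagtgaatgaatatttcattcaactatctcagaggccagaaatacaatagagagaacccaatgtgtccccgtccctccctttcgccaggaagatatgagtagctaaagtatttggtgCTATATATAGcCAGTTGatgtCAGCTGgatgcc
Pdlim3, plus strand of chr8:45885237-45885486: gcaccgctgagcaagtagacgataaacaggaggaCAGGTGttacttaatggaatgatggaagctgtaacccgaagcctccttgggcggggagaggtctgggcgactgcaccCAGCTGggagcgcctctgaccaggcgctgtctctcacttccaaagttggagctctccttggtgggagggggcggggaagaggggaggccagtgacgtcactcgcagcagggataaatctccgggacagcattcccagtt
The Actn2 promoter held 3 E-boxes, at -245, -84 and -48 (position of the first base, counted back from the start site), and no MEF2 match. The Myoz2 promoter held the MEF2 match at -33, overlapping matches to TATATA, followed by E-boxes at -22 and -12. The Pdlim3 promoter held E-boxes at -216 and -139 and the letters CATTCC or their reverse complement (the MCAT element of muscle genes, found in 12.6% of all promoters) at -201 and -11. Neither of the start sites of Ldb3 had an E-box or a MEF2 match in this window, while both of Synpo2l, which did not pass the test, had E-boxes and a MEF2 match. A MEF2 match was thus seen both in a gene that fell and in one that did not pass.

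The myozenins, or calsarcins, which link alpha-actinin and filamin to calcineurin, gave the largest and the smallest differences of the 10 genes under TMM scaling. Myoz1 (ENSMUSG00000068697, minus strand of chr14:20649107-20656540), the form of fast fibres, was at 597.7, 586.3, 602.8 and 663.4 normalized CPM in controls 1 to 4. In Dnm2 +/K562E mice 1 to 4 it was at 174.6, 226.5, 237.8 and 192.7. The groups were far apart, with the highest Dnm2 +/K562E mouse well under the lowest control. Its log2 fold change was -1.56 ± 0.10 (SE), a level 66.1% lower, with an adjusted p of 1.29e-06 in edgeR's test, and Myoz1 ranked 77 among the 14001 genes by p and 116 by log2 fold change counted from the lowest.

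Myoz2 (ENSMUSG00000028116, minus strand of chr3:123006206-123035015), whose promoter is shown above, was at 1533, 1466, 1597 and 1305 normalized CPM in controls 1 to 4 and at 936.8, 901.9, 977.4 and 868.3 in Dnm2 +/K562E mice 1 to 4. The groups did not overlap and the spread within each was small. The log2 fold change was -0.68 ± 0.07 (SE), a level 37.6% lower, with an adjusted p of 4.27e-05 in edgeR's test. Myoz3 (ENSMUSG00000049173, minus strand of chr18:60573750-60591788), a further form of fast fibres, was read at only 17.9, 22.1, 17.7 and 26.6 normalized CPM in controls and at 17.8, 18.7, 24.2 and 20.5 in Dnm2 +/K562E mice. The genotypes were intermingled. Its difference was -0.05 on the log2 scale (95% interval -0.37 to 0.26, adjusted p of 0.781 in edgeR's test), so that a change of the size seen in Myoz2 lay outside the interval.

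Of the proteins around titin and the alpha-actinins, Myot and Ldb3 fell by almost the same amount, and Tcap fell with less certainty. Myot (ENSMUSG00000024471, plus strand of chr18:44334074-44355724) encodes myotilin, which binds alpha-actinin and filamin. It was at 2405, 2461, 2667 and 2426 normalized CPM in controls 1 to 4 and at 1821, 1586, 1699 and 1696 in Dnm2 +/K562E mice 1 to 4, with no overlap and a log2 difference of -0.55 ± 0.07 (SE, adjusted p of 8.69e-05 in edgeR's test). Ldb3 (ENSMUSG00000021798, minus strand of chr14:34526603-34588682) encodes ZASP, a PDZ and LIM domain protein that holds alpha-actinin and the myozenins in place. It was at 2239, 2452, 2529 and 2527 normalized CPM in controls and at 1649, 1588, 1754 and 1594 in Dnm2 +/K562E mice, again with no overlap and with a log2 difference of -0.57 ± 0.07 (SE, adjusted p of 7.05e-05). These genes had the lowest spread of the 10 in controls, with coefficients of variation of 4.84% and 5.60%, and of 5.63% and 4.69% in Dnm2 +/K562E mice.

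Tcap (ENSMUSG00000007877, plus strand of chr11:98383811-98384953) encodes telethonin, which caps the titin ends inside the Z-disc. It was at 3890, 2656, 2976 and 2231 normalized CPM in controls 1 to 4 and at 1881, 2349, 2360 and 2265 in Dnm2 +/K562E mice 1 to 4. Control 1 was highest, and control 4 lay among the Dnm2 +/K562E mice. The log2 fold change was -0.41 ± 0.15 (SE), with an adjusted p of 0.0454 in edgeR's test. The call was lost when any 1 mouse other than control 4 was left out. Without control 1 the log2 fold change was -0.25 (adjusted p of 0.0916), and over all alternatives tried the adjusted p ran from 0.00771 to 0.843.

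With TMM scaling, Pdlim3 was the only one of the 10 genes that rose, while Synpo2l joined it with library size alone and when scaled to fibre genes. It encodes the actinin-associated LIM protein (ALP; ENSMUSG00000031636, plus strand of chr8:45885461-45919548), a PDZ and LIM domain adaptor of the same family as Ldb3. It was at 199.4, 227.8, 220.7 and 262.5 normalized CPM in controls 1 to 4 and at 250.8, 313.6, 392.6 and 292.3 in Dnm2 +/K562E mice 1 to 4. The groups overlapped at the edge, with control 4 above Dnm2 +/K562E mouse 1. The log2 fold change was 0.46 ± 0.13 (SE), a level 37.2% higher, with an adjusted p of 0.0138 in edgeR's test. It ran from 0.33 without Dnm2 +/K562E mouse 3 to 0.82 when scaled to fibre genes, with an adjusted p of at most 0.0379 under every alternative.

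Synpo2l (ENSMUSG00000039376, minus strand of chr14:20658946-20668354) encodes the cytoskeletal heart-enriched actin-associated protein CHAP, which binds alpha-actinin. It was at 213.3, 218.8, 217.4 and 243.9 normalized CPM in controls and at 206.4, 240.2, 277.7 and 205.3 in Dnm2 +/K562E mice. The Dnm2 +/K562E mice lay on both sides of the controls. Its difference was 0.06 on the log2 scale (95% interval -0.16 to 0.27, adjusted p of 0.660 in edgeR's test). Synpo2l lies directly upstream of Myoz1 on the same strand of chromosome 14, with 2405 bases between the genes. The reads of Myoz1 were 280%, 268%, 277% and 272% of those of Synpo2l in controls 1 to 4 and 84.6%, 94.3%, 85.6% and 93.9% in Dnm2 +/K562E mice 1 to 4, a pair singled out after its values were seen, for which no p is therefore given.

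Ratios within a library do not depend on scaling between libraries. They were compared for 3 pairs of relatives by an exact two-sided permutation test, whose smallest p with 4 against 4 mice is 0.0286. The genes of these pairs were among the 10 chosen with earlier results of these data known. Per kilobase of exon, Myoz1 stood at 70.5%, 72.4%, 68.3% and 92.0% of the level of Myoz2 in controls 1 to 4 and at 33.7%, 45.4%, 44.0% and 40.2% in Dnm2 +/K562E mice 1 to 4. The groups were separate, and the log2 ratio of reads differed by -0.89 (exact permutation p = 0.0286, adjusted over the 3 ratios 0.0429). The fall of the fast-fibre myozenin was thus larger than that of the slow-fibre myozenin. Actn3 stood at 11.6%, 12.7%, 15.7% and 34.0% of Actn2 per kilobase in controls 1 to 4 and at 9.71%, 11.2%, 8.40% and 9.68% in Dnm2 +/K562E mice 1 to 4. The highest Dnm2 +/K562E mouse was just under the lowest control, and the log2 ratio of reads differed by -0.79 (exact permutation p = 0.0286, adjusted 0.0429). Without control 4 that difference was -0.44 (exact permutation p = 0.0571), and on leaving out any 1 of the Dnm2 +/K562E mice it lay between -0.85 and -0.72 (exact permutation p = 0.0857 to 0.114). Myoz3 stood at 1.45% ± 0.428 of Myoz2 per kilobase in controls and 2.20% ± 0.262 in Dnm2 +/K562E mice (SD, n = 4 each), a log2 difference of 0.63 (exact permutation p = 0.0571, adjusted 0.0571), and without control 4 of 0.81 (exact permutation p = 0.0286).

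**Figure D2:**
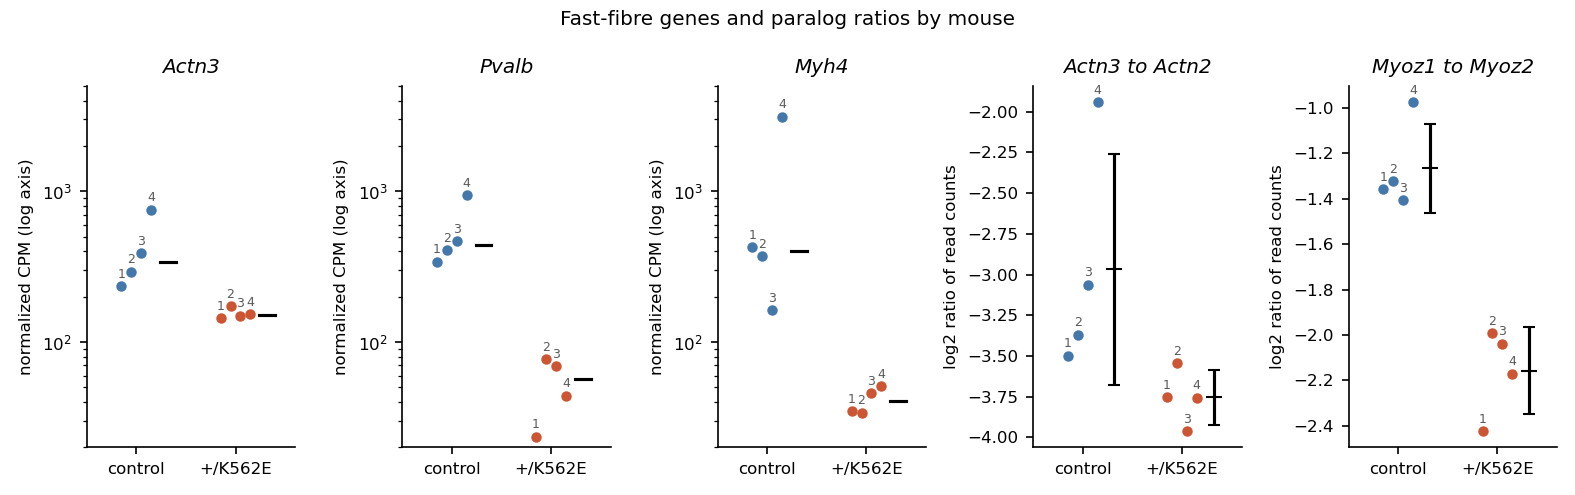
The 3 panels on the left give normalized CPM on a log axis for Actn3, Pvalb and Myh4 in 4 control mice (blue) and 4 Dnm2 +/K562E mice (orange), numbered by mouse, with the median of each genotype as a black bar. The 2 panels on the right give the log2 ratio of read counts of Actn3 to Actn2 and of Myoz1 to Myoz2, with the mean and SD in black. Control 4 is the highest mouse in every panel, and the genotypes do not overlap in any.

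Of the 10 genes, 5 had the same rank of level in both genotypes and 5 moved by 1 or 2 ranks. Per kilobase of exon, the order in controls was Tcap (3100 normalized CPM per kb), Myot (1127), Actn2 (781.7), Myoz2 (431.0), Ldb3 (399.2), Myoz1 (323.8), Actn3 (144.5), Synpo2l (48.3), Pdlim3 (44.2) and Myoz3 (6.13), where the ranges of neighbours overlapped only between Myoz2 and Ldb3 and between Synpo2l and Pdlim3. In Dnm2 +/K562E mice it was Tcap (2335), Myot (769.8), Actn2 (551.0), Ldb3 (269.7), Myoz2 (269.1), Myoz1 (109.9), Pdlim3 (60.7), Actn3 (53.4), Synpo2l (50.2) and Myoz3 (5.90). There the ranges of Ldb3 and Myoz2 overlapped, as did those of Pdlim3, Actn3 and Synpo2l as neighbours. Actn3 was thus above Pdlim3 and Synpo2l in every control and within their range in Dnm2 +/K562E mice.

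How far the set fell depended on what the libraries were scaled to. A list of 10 fibre genes used by fast and slow fibres alike had a median log2 fold change of -0.39 with TMM scaling. Of the list, 7 were lower, 2 higher (Cav3 at 0.45 and Klhl41 at 0.23) and 1 not past edgeR's test, against 21.7% of all genes lower and 22.2% higher. Sgca of the sarcoglycan complex was at -0.86 and the calcium release channel gene Ryr1 at -0.63. When the libraries were scaled to these 10 genes in place of TMM, the median of all genes moved to 0.39 and that of the Z-disc genes to -0.15. Then 3 of the Z-disc genes were lower, Myoz1 (log2 fold change -1.19), Actn3 (-1.08) and Myoz2 (-0.30, adjusted p of 0.0105 in edgeR's test), and 2 were higher, Pdlim3 (0.82) and Synpo2l (0.43, adjusted p of 0.00247). On the same scale 5.59% of all genes were lower and 54.2% higher, so that the share of Z-disc genes called higher was below that of all genes. Actn2 (-0.13), Myot (-0.17), Ldb3 (-0.19) and Tcap (-0.03) did not pass, and their adjusted p ran from 0.0807 to 0.843. With library size alone, the median of all genes moved to 0.22 and that of the Z-disc genes to -0.32, Tcap lost its call (-0.20) and Synpo2l passed (0.27, adjusted p of 0.0493 in edgeR's test), where 10.7% of all genes were lower and 40.1% higher.

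**Figure D3:**
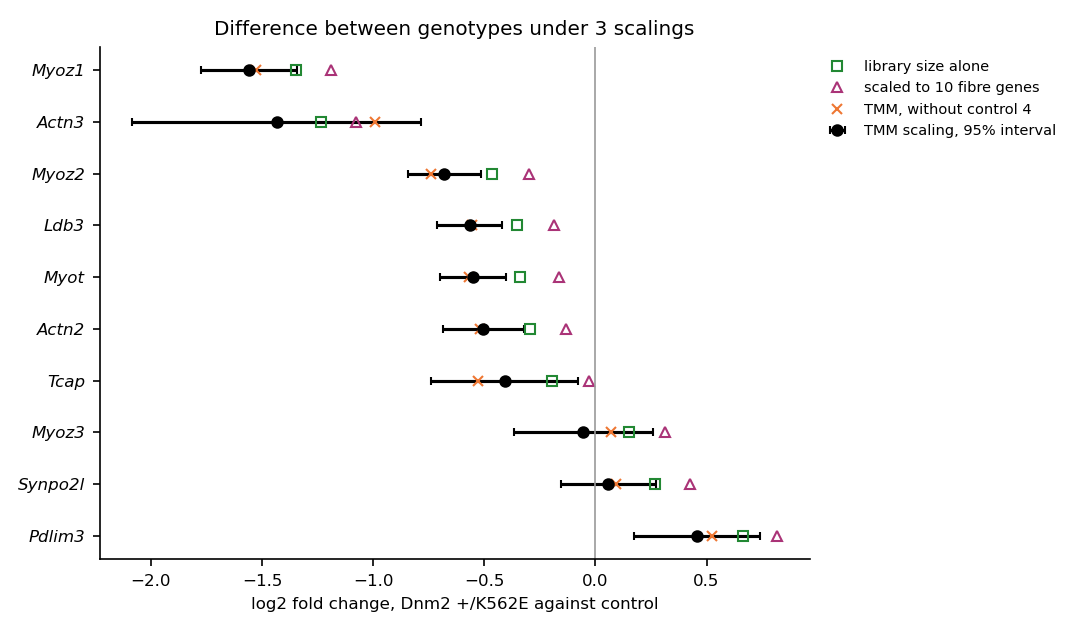
Log2 fold change of each Z-disc gene, Dnm2 +/K562E against control (horizontal axis), with TMM scaling and its 95% interval in black, with library size alone (green squares), scaled to 10 fibre genes (purple triangles) and with TMM but without control 4 (orange crosses). Actn2, Actn3, Tcap, Myoz1, Myoz2, Myot and Ldb3 lie below 0 and Pdlim3 and Synpo2l above 0 in all 4. Myoz3 lies on both sides of 0. Every gene moves upward when scaled to the fibre genes, and Actn2, Myot, Ldb3 and Tcap then lie nearest 0.

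A further 21 genes of the Z-disc did not follow the 7 that fell as a group. Of these, 7 were lower, 4 higher and 10 not past edgeR's test, against 21.7% of all genes lower and 22.2% higher. Their median log2 fold change was -0.05, which was 0.16 with library size alone and 0.32 when scaled to fibre genes. These are levels in whole muscle, and the part of cells other than fibres in them was not tested. Pdlim1, a PDZ and LIM domain relative of Pdlim3 and Ldb3, was at 341.0 to 417.3 normalized CPM in controls and 181.9 to 213.0 in Dnm2 +/K562E mice, with no overlap. Its log2 fold change was -0.93, with an adjusted p of 8.49e-06 in edgeR's test. Nrap, which acts in myofibril assembly, was at -0.59 (adjusted p of 7.77e-04). Xirp2, an actin-binding repeat protein of the Z-disc and of sites of fibre damage, was at 1316 to 1455 normalized CPM in controls and 2449 to 3036 in Dnm2 +/K562E mice, a difference of 0.96 on the log2 scale (adjusted p of 5.68e-06). Smpx, a small stretch-responsive muscle protein, was at 0.52 (adjusted p of 3.53e-04).

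**Figure D4:**
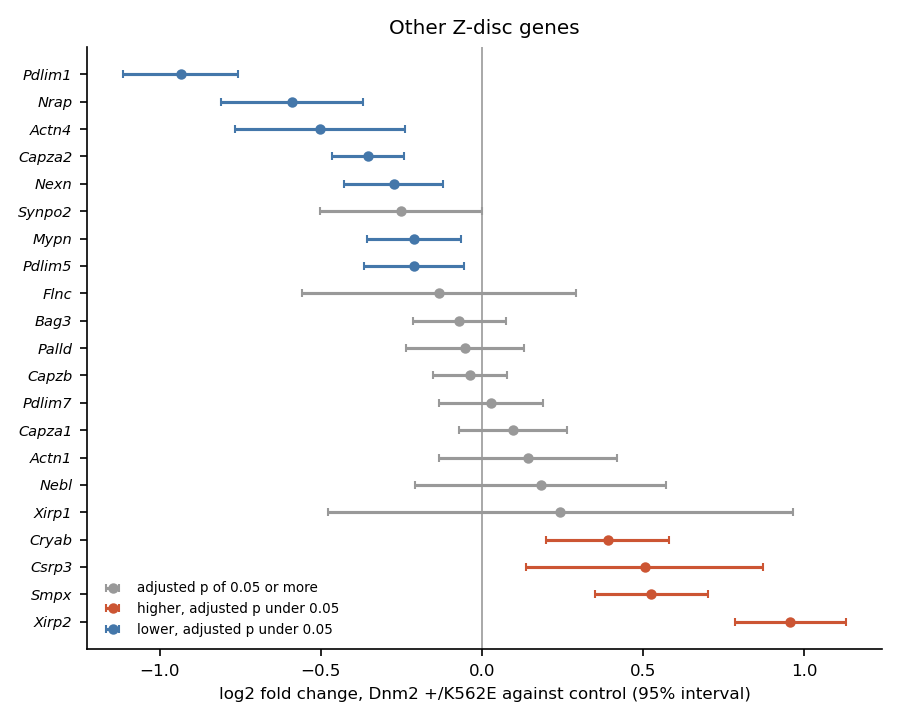
Log2 fold change, Dnm2 +/K562E against control, with its 95% interval (horizontal axis) for 21 further Z-disc genes, coloured by whether the gene was higher (orange), lower (blue) or not past an adjusted p of 0.05 (grey) in edgeR's test. The 7 lower genes reach -0.93 (Pdlim1) and the 4 higher genes 0.96 (Xirp2).

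Genes of the calcineurin pathway, to which the myozenins are tethered, went both ways. Of 11 genes, 4 were lower, 2 higher and 5 not past edgeR's test, against 21.7% of all genes lower and 22.2% higher. Their median log2 fold change was -0.17. Scaled to fibre genes, 0 were lower and 4 higher, against 5.59% and 54.2% of all genes. The catalytic subunit gene Ppp3cb was at -0.40 and the inhibitor gene Rcan2 at -0.24. The transcription factor gene Nfatc4 (0.93) and the regulator gene Rcan3 (0.57) rose from low levels, with control means of 7.78 and 11.5 normalized CPM.

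The fast- and slow-fibre markers fell along with Actn3, Myoz1 and Myoz2. With TMM scaling, 21.7% of all genes were lower and 22.2% higher. Of 9 fast-fibre genes, 7 fell and 2 did not pass (median log2 fold change -0.69), and those 2 (Myh1 and Mylpf) were higher when scaled to fibre genes (median of the 9 genes -0.31). Myh4 was at -4.63 (-2.96 without control 4) and Pvalb at -3.34. Of 7 slow-fibre genes, 6 fell and 1 did not pass (median -0.54, or -0.16 with 2 lower when scaled to fibre genes), with the slow light chain gene Myl3 at -2.12 and the slow troponin C gene Tnnc1 at -0.69. Of 5 genes of embryonic and neonatal fibres, 4 rose, among them Myl4 (4.84) and Myh3 (3.84), and their summed level was 71.5 to 82.7 normalized CPM in controls and 591.2 to 871.5 in Dnm2 +/K562E mice. The part of fibre type or of fibre immaturity in the Z-disc differences was not tested.

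Markers of other cells in the muscle also differed, where 21.7% of all genes were lower and 22.2% higher with TMM scaling. All 7 macrophage genes were higher (Lgals3 at a log2 fold change of 2.10 and Cd68 at 1.77), with summed levels of 72.8 to 135.5 normalized CPM in controls and 179.3 to 295.6 in Dnm2 +/K562E mice. All 6 fibroblast genes were higher (Lum at 1.65 and Col3a1 at 1.15), with sums of 2366 to 3667 and 5209 to 6837. Of 6 tendon genes 5 were higher (Tnmd at 1.42 and Mkx at 1.18), with sums of 327.4 to 736.6 and 933.5 to 1292. All 5 endothelial genes were lower (Kdr at -0.64 and Vwf at -0.45, sums of 910.3 to 975.5 and 652.0 to 729.8), as were all 5 smooth muscle genes (Acta2 at -0.82 and Cnn1 at -0.70, sums of 514.9 to 660.4 and 347.8 to 379.2). Of 5 Schwann cell genes 1 was lower (Mbp at -0.24, sums of 157.9 to 178.2 and 132.4 to 164.8), and 0 of 5 adipocyte genes passed edgeR's test (Fabp4 at -0.21, sums of 415.8 to 642.8 and 392.2 to 544.9). No marker was at 0 in any library. When libraries were scaled to fibre genes, the endothelial calls were lost and 3 Schwann cell genes were higher and 0 lower. The part of these cells in the Z-disc differences was not tested.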

How the data were processed

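Per the labels and the study's methods, the authors trimmed reads with Trimmomatic 0.33, aligned them to GRCm38.p5 with STAR 2.5.1b and counted them per Ensembl gene with featureCounts. The deposited values are raw counts per gene and mouse. The methods name a poly A kit and the labels a total RNA kit, and the strand setting is not given in the sources used here.

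The 10 genes and all lists were chosen with earlier results of these data known. Symbols came from GENCODE M21 for 22647 of the 22880 IDs. Using edgeR 4.0.16 in R 4.3.3, genes were filtered (filterByExpr, minimum count 10, minimum total 15), scaled by TMM and tested by the quasi-likelihood F-test over all 8 mice, with Benjamini-Hochberg adjustment over all 14001 tested genes, in place of the exact test of the study. SEs were derived from the F statistic. The fit was tested on simulated counts. CPM per kb used merged exon length. Ratios used a prior count of 2.

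Named were all 10 genes, Dnm2, and from each list up to 4 genes, in each direction the 2 with the largest log2 fold change among those called, or the 1 with the smallest p where none was. Xirp1, Rcan1, Myh7 and the further fast-fibre genes (Myh1, Myh2, Mylpf, Tnni2, Tnnc2 and Atp2a1) were named after their values were seen. Not every gene of the fibre gene list is reported by name here. Alternatives were the exact test, DESeq2 1.42.0, other scalings and filters, replicate blocks, a fold threshold and leaving out each mouse. Mice are separate animals, and each p-value sets the difference between genotypes against the spread between mice.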

Additional observations from a re-analysis of the deposited data

Results flagged for a closer look

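Dnm2 in control 3, at 59.2 normalized CPM, lay apart from the other controls, which were between 68.5 and 68.8, by Dixon's criterion for 4 samples. Of 30 groups of 4 mice examined in this way, this was the 1 found, and chance alone sets a mouse apart in about 1 in 20 groups. Without control 3 the log2 fold change of Dnm2 was 0.09, with an adjusted p of 0.246 in edgeR's test.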

How the results depend on the processing

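Of 180 log2 fold changes of the 10 Z-disc genes under alternatives, 158 kept their direction and their side of the threshold, 15 lost the call, 2 gained it and 5 changed sign. Myoz1, Actn3, Myoz2 and Pdlim3 kept their calls under each of these, but Pdlim3 (0.46) is under the added fold threshold of 0.58. The sign changes were those of Myoz3 with library size alone (0.15), scaled to fibre genes (0.31) and on leaving out a mouse (-0.15 to 0.070), and of Synpo2l on leaving out a mouse (-0.040 to 0.11). The exact test of edgeR, DESeq2 and median-ratio factors gave 7 lower and 1 higher, as reported.

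With library size alone, 2 Z-disc genes were higher, further Z-disc genes were 8 higher and 3 lower, calcineurin genes 4 and 1, endothelial genes 2 lower and Schwann cell genes 0 lower, and all genes 5608 higher and 1504 lower. Scaled to fibre genes, Z-disc genes were 2 higher and 3 lower, further Z-disc genes 11 and 2, calcineurin genes 4 and 0, Schwann cell genes 3 and 0, and all genes 7582 and 783. On that scale 2 fast-fibre genes were higher, 2 slow-fibre, 3 shared fibre, 3 smooth muscle and 0 endothelial genes were lower, and Rcan2 (0.14), Mbp (0.14) and Fabp4 (0.16) changed sign. The part of the scaling in each of these shifts was not tested. With a log2 fold change of at least 0.58, Z-disc genes were 0 higher and 3 lower, further Z-disc genes 1 and 2, calcineurin genes 1 and 0, shared fibre genes 0 and 3, and 3 slow-fibre, 1 endothelial and 0 Schwann cell genes were lower, with all genes at 1806 and 1099.

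Same-numbered mice had correlations of their deviations of -0.213 to 0.00949 by the titles (mean -0.114). By the descriptions these were -0.167 to 0.178 (mean -0.0302). With no mice known to be paired for reference, this check cannot exclude a pairing. With the replicate block of the titles, 2608 genes were higher and 2523 lower, calcineurin genes lower were 2, and Tcap was at -0.38 (adjusted p of 0.104 in edgeR's test); with that of the descriptions, Tcap was at -0.39 (0.0521). In the sign-flip test over the replicate block, whose smallest p is 0.125, Actn3 to Actn2 differed by -0.79 and Myoz1 to Myoz2 by -0.89 (exact p = 0.125 each). On leaving out a mouse, the calcineurin genes lower ran from 2 to 6, Actn3 to Actn2 from -0.96 to -0.44 and Myoz3 to Myoz2 from 0.51 to 0.81. The cause of these changes was not tested.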

Other observations

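Many of the 10 Z-disc genes were highest in the same Dnm2 +/K562E mouse or lowest in the same control. Of the 10 genes, 8 were highest in Dnm2 +/K562E mouse 3 among the 4 Dnm2 +/K562E mice, all but Actn3 and Myot. The same held for 11 of the 21 further Z-disc genes (52.4%) and for 21.4% of all genes tested. It was not particular to the Z-disc. The summed slow-fibre and shared fibre genes were also highest in that mouse, at 14342.5 and 31079.4 normalized CPM. In the other Dnm2 +/K562E mice these sums were 11340.5 to 13276.3 and 25993.6 to 30196.8. Of the 9 fast-fibre genes, 0 were highest in Dnm2 +/K562E mouse 3 and 7 in Dnm2 +/K562E mouse 4. Among controls, control 1 was lowest in 6 of the 10, in 15 of the 21 (71.4%) and in 28.3% of all genes. The highest control was not shared in this way: it was control 4 in 5 of the 10, control 3 in 4 and control 1 in 1 (Tcap). These genes share libraries and are not independent, so the shares are descriptions only. Xirp1, of the Xin family, was at 289.0 normalized CPM in control 1, between 605.4 and 1025 in the other controls and at 1179 in Dnm2 +/K562E mouse 3. Rcan1, a calcineurin regulator gene that responds to calcineurin activity, was at 145.2 in control 1 and between 408.3 and 588.0 in the other controls.

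The adaptor relatives Pdlim3 and Pdlim1 moved in opposite directions. Per kilobase of exon, Pdlim3 stood at 59.8%, 55.8%, 54.2% and 71.8% of Pdlim1 in controls 1 to 4 and at 121%, 176%, 188% and 146% in Dnm2 +/K562E mice 1 to 4. The pair was singled out after its values were seen and was not tested. Pdlim1 was thus the more abundant of the pair in every control and Pdlim3 in every Dnm2 +/K562E mouse.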
